A study of Mus musculus with 50 samples.

Results

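Peaks of N6-methyladenosine (m6A) deep inside the coding sequence of long messenger RNAs are described here, in B cells of mice. These 2811 peaks were taken from 32009 in the authors' table, 8.78% of them. A peak was chosen when the table placed it in the coding sequence (CDS), more than 2000 nt from the start of its transcript and within 50 nt of a consensus motif, on either side. These are called distal coding peaks below. They lay on 1398 of the 14219 transcripts with a peak, on 21 chromosomes, at 2811 distinct genomic positions. The choice used position, transcript part and motif distance, and no score.

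m6A is a methyl mark placed on adenosines while the message is being made. METTL3 carries the catalytic site of the main writer complex and pairs with METTL14, and the complex prefers a short sequence motif around the adenosine. The mark is best known around stop codons and in 3' UTRs, and also in unusually long internal exons, whereas short internal exons carry little of it, which has been linked to protein complexes left at exon junctions. In activated and germinal center B cells, readers such as YTHDF2, which speeds message decay, and IGF2BP3, which stabilises messages, act on marked RNA.

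The series held 50 samples, of which 12 were m6A-seq libraries in 4 groups of 3. For these libraries, cells were kept overnight with LPS, the bacterial endotoxin that stimulates B cells through a Toll-like receptor. The mice were AIDcre Mettl3-flox/+ or AIDcre Mettl3-flox/flox. Both genotypes had libraries of m6A-immunoprecipitated RNA (IP) and of the starting RNA (Input). All 4 groups thus carried AIDcre, a recombinase made under control of the gene for AID, an enzyme that B cells switch on when activated, so deletion depends on that activation and its extent was not measured here. The strain label was C57BL with a different number in every m6A-seq library and was not used. The labels give no age, no sex and no mouse of origin for a replicate. The series text names the profiled cells wild type, unlike the genotypes in the sample labels. Left aside were 38 expression libraries, made from dark zone and light zone cells of germinal centers.

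The table scored each peak once in an arm headed test and once in an arm headed control, with replicates pooled by the authors, in 2 score versions. The formula of each version is not given in the sources used. The table does not name the genotype of either arm. The test arm was read as the flox/+ cells, because the authors' shorter list of METTL3-dependent peaks holds peaks that scored higher there. The other arm is called the comparator arm and was read as the flox/flox cells. Scores and differences below are therefore in score units, as the authors' own values, and every direction between genotypes rests on that reading. No read counts were given, so depth is unknown and single scores carry no replicate error. Because the scores were pooled, no test between arms over libraries was possible, and peaks were not used as replicates in one: counts, medians and the authors' p-values are described instead. The files pair no peak with a gene name, and 0 of their transcript identifiers were found in the available name tables, so peaks are given by position and the labelled cell type could not be checked against its markers. Positions are taken as mouse build mm9, because 164 of the peaks, 5 of them distal coding peaks, lie past the ends of 7 chromosomes of GRCm38. No mm9 sequence was at hand, so no bases are printed.

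The distal coding peaks began just past the threshold and ran far along the messages. The first lay at 2002 nt and the last at 30382 nt, with a median of 3061 nt (quartiles 2442.5 to 4280 nt). There were 785 peaks up to 2500 nt, 563 between 2500 and 3000 nt, 658 between 3000 and 4000 nt and 312 between 4000 and 5000 nt. A further 341 lay between 5000 and 7500 nt, 84 between 7500 and 10000 nt and 68 beyond 10000 nt, these last on 25 transcripts. Of the 3456 coding peaks past 2000 nt, 81.3% were within the motif window and so are distal coding peaks, and the share near the motif among the 8167 coding peaks up to 2000 nt was 78.3%. In the 7 position bins past 2000 nt this share lay between 78.5% and 83.5%. The median distance to the motif was 12 nt (quartiles 5 to 24 nt), and the motif position coincided with the peak in 91 cases. The motif was on the negative side of the peak in 1337 cases and on the positive side in 1383, so neither side was favoured by more than a small margin. The letters of the motif are not spelled out.

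Long messages often carried several of these peaks. A single distal coding peak was found on 796 transcripts, 2 on 268, 3 on 148 and 4 on 84, while 102 transcripts held at least 5 and together 699 of the peaks. At least 10 were found on 12 transcripts, and the highest number was 19. Peaks of the same message share their RNA and libraries and, when close, may share fragments, so they are not independent observations.

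The position of a peak in the genome and in its transcript together show whether an intron lies between neighbouring peaks: where both distances are equal, the RNA between them comes from 1 uninterrupted stretch of an exon. In none of the 17790 neighbouring pairs of the table was the genomic distance the shorter. Neighbouring distal coding peaks with no other peak between them formed 1274 pairs, of which 952 had no intron between them (74.7%, exact Clopper-Pearson 95% interval 72.2% to 77.1%). Their median spacing was 228.5 nt, and the table holds no pair closer than 51 nt. Intervals on shares here and below cover counting error only and treat peaks as independent.

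The share without an intron fell with spacing. It was 92.0% (88.0% to 94.97%) of 262 pairs spaced up to 100 nt and 92.8% (89.4% to 95.4%) of 321 pairs at 100 to 200 nt. At 200 to 400 nt it was 81.3% (76.2% to 85.8%) of 273 pairs, at 400 to 800 nt 62.3% (55.2% to 68.9%) of 204 and beyond 800 nt 29.9% (23.9% to 36.5%) of 214. Neighbouring coding peaks in the first 2000 nt, which were not held to the motif window, had no intron between them in 75.9% of 2957 pairs, close to the share of the distal pairs. By spacing they gave 91.97% up to 100 nt, 88.6% at 100 to 200 nt, 73.5% (70.3% to 76.6%) at 200 to 400 nt, 57.2% (52.8% to 61.5%) at 400 to 800 nt and 28.0% beyond. Between a stop-codon peak and the coding peak before it the shares were lower, 56.5% (51.4% to 61.6%) and 33.2% (29.0% to 37.6%) at 200 to 400 and 400 to 800 nt. As a check of the measure, a 3' UTR peak and the 3' UTR or stop-codon peak before it, which usually share the last exon, had no intron between them in 99.1% of 3683 pairs.

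**Figure D1:**
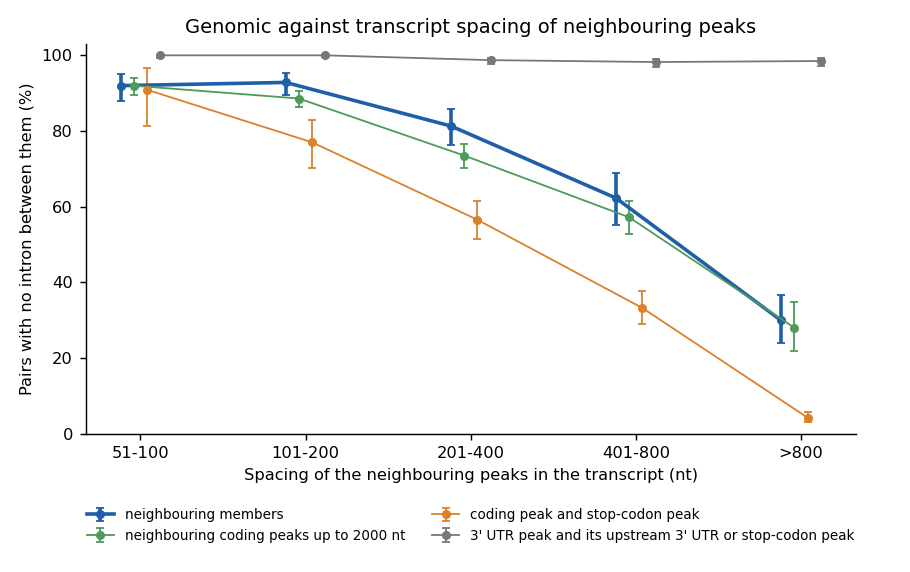
Share of neighbouring peak pairs with no intron between them (y axis, percent) by their spacing in the transcript (x axis, nt), for 4 kinds of pair; bars are exact 95% intervals for counting error. Pairs of distal coding peaks go from 92.0% at up to 100 nt to 29.9% beyond 800 nt, above the pairs of a coding and a stop-codon peak from 100 nt on.

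Grouped by such stretches, the distal coding peaks fell into 1787, of which 518 held at least 2 of them and 65 at least 5. In all, 1542 of the peaks (54.9%) shared a stretch with another distal coding peak, and 1873 (66.6%) with any other peak. The stretches with at least 2 distal coding peaks spanned a median of 628.5 nt from their first to their last peak (quartiles 217 to 1314.5 nt), and 187 of them spanned over 1000 nt. These spans are lower bounds on the length of the exon. A stretch spanning over 1000 nt held 860 distal coding peaks (30.6%). For 1046 peaks (37.2%) other peaks of the message lay beyond an intron on both sides, which places them in an internal exon. Internal stretches with at least 2 distal coding peaks numbered 192 and spanned a median of 370 nt (quartiles 115 to 889.25 nt, longest 3948 nt). A stop-codon peak lay in the same stretch for 338 of the distal coding peaks (12.0%).

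Peaks that shared a stretch scored higher than those that stood alone, most of all on the second score version. The median test-arm score was 2.23 on the first version for the 1873 peaks with another peak in the stretch and 1.79 for the 938 without. On the second version these medians were 3.85 and 2.43. The comparator arm gave 1.99 and 1.53 by the first version and 3.18 and 2.10 by the second. The share called in at least 2 of 3 test replicates, by contrast, was 22.1% and 21.2%.

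The question the m6A-seq libraries address is which marks depend on METTL3. Distal coding peaks scored somewhat higher in the test arm, as peaks of the table did in general. Their median first-version score was 2.09 in the test arm, with quartiles of 1.55 and 2.88, and 1.84 in the other, with quartiles of 1.26 and 2.51. The second-version medians were 3.60 (2.53 to 4.28) and 2.93 (1.95 to 3.70). The difference per peak, test minus comparator, had a median of 0.31 (quartiles -0.15 to 0.78) by the first version and 0.53 (0.06 to 1.01) by the second. Over all 32009 peaks it was 0.25 (-0.31 to 0.83) and 0.49 (-0.12 to 1.06). The test arm was higher in 1862 distal coding peaks on the first version (66.2%, against 61.7% of all peaks) and in 2179 on the second (77.5%, against 70.0%). Both versions put the test arm higher for 1700 peaks (60.5%) and they differed in sign for 641 (22.8%). The quartile ranges of the arms overlapped on both versions.

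**Figure D2:**
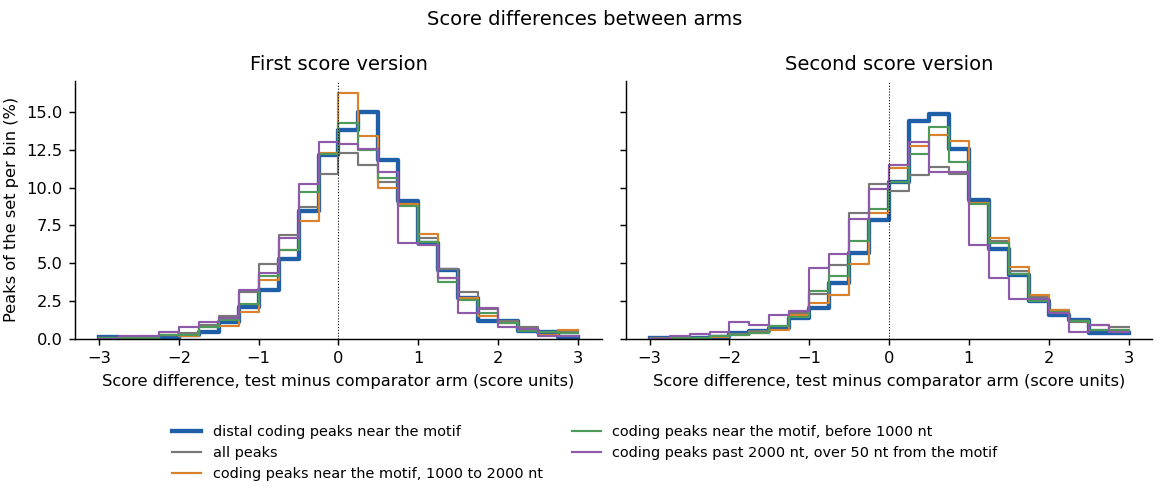
Distribution of the score difference between arms (x axis, score units, values beyond 3 placed in the outermost bins) as the share of peaks per bin of 0.25 (y axis, percent), for the distal coding peaks, all peaks and 3 other sets of coding peaks, on each score version. The distal coding peaks centre at 0.31 and 0.53, to the right of 0 and of the coding peaks far from the motif (0.16 and 0.32).

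The authors' METTL3-dependent list held 808 of the 2811 distal coding peaks, 28.7% (27.1% to 30.5%), beside 28.1% of all peaks, so the share was near that of the whole table. Its rule, as read from the values, was a higher test arm on at least 1 version and an unadjusted p under 0.1 on at least 1. Of the 808, 226 passed that p on both versions, 219 on the first only and 363 on the second only. With the arms exchanged, the same rule took in 177 distal coding peaks (6.30%, against 10.7% of all peaks). For other coding peaks near the motif this share was 7.17% at 1000 to 2000 nt and 9.19% before 1000 nt. Past 2000 nt but over 50 nt from the motif it was 6.36%. Of the 808 listed peaks, 97 also met this exchanged rule, because their 2 versions differed in sign. The listed peaks lay on 568 transcripts (40.6% of those with a distal coding peak). Of these, 411 had 1 listed peak, 100 had 2, 38 had 3, 14 had 4, 3 had 5 and 2 had 6. Among the 602 transcripts with at least 2 distal coding peaks, 261 had none listed, 289 had some and 52 had all of them listed.

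At an unadjusted p under 0.05 on the first version, 223 of 2800 distal coding peaks were higher in the test arm (7.96%, against 8.18% of all peaks) and 38 in the comparator arm (1.36%, against 3.35%). On the second version the counts were 339 (12.1%, against 12.9%) and 14 of 2811 (0.498%, against 2.01%). Both versions passed at once, with the test arm higher, in 83 peaks (2.96%, against 4.14%), and with the comparator arm higher in 2 (0.0714%, against 0.515%). The shares with the test arm higher were thus near or below the background of the table, and those with the comparator arm higher were below it. Other coding peaks were also below the background for the comparator arm. On the first version they gave 1.76% near the motif at 1000 to 2000 nt and 1.73% before 1000 nt. Past 2000 nt but over 50 nt from the motif it was 1.71%. On the second version these shares were 0.878%, 1.16% and 1.24%. After Benjamini-Hochberg adjustment over the whole table, 0 distal coding peaks were under 0.05 on either version, as were 0% of all peaks. The smallest adjusted p among the distal coding peaks was 0.249 by the first version and 0.219 by the second.

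Coding peaks near the motif had similar listed shares along the message, and those far from the motif had a lower one. Between 1000 and 2000 nt, 802 of 2847 coding peaks near the motif were listed (28.2%, 26.5% to 29.9%), with median differences of 0.25 and 0.58 on the 2 versions. Before 1000 nt, 988 of 3546 were listed (27.9%, 26.4% to 29.4%), with 0.22 and 0.53. Past 2000 nt but over 50 nt from the motif, 106 of 645 were listed (16.4%, 13.7% to 19.5%), with 0.16 and 0.32. The interval of this last share lay below that of the distal coding peaks, while the other intervals overlapped it. The median second-version test-arm score was 3.66 between 1000 and 2000 nt, 3.34 before 1000 nt and 2.74 far from the motif. None of these differences between sets was tested.

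Within the distal coding peaks the listed share showed no steady course with position. It was 24.8% (21.9% to 28.0%) up to 2500 nt, 27.9% at 2500 to 3000 nt and 33.3% (29.7% to 37.0%) at 3000 to 4000 nt. It was 29.8% at 4000 to 5000 nt, 27.9% at 5000 to 7500 nt, 34.5% (24.5% to 45.7%) at 7500 to 10000 nt and 29.4% (19.0% to 41.7%) beyond. The median difference in these 7 bins lay between 0.01, in the last, and 0.46, in the bin before it, on the first version, and between 0.49 and 0.57 on the second. The intervals of the first and the third bin did not overlap, while those of every other pair of bins did.

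Distance to the motif, in contrast, went with the listed share even inside the window. Where peak and motif coincided, 39 of 91 distal coding peaks were listed (42.9%, 32.5% to 53.7%). At 1 to 5 nt the share was 34.3% (30.7% to 38.0%) of 677, at 6 to 10 nt 29.4% of 517, at 11 to 20 nt 28.0% of 628 and at 21 to 30 nt 24.9% of 409. At 31 to 40 nt it was 24.0% of 279 and at 41 to 50 nt 19.0% (14.0% to 25.02%) of 210. Outside the window the coding peaks past 2000 nt had 18.0% at 51 to 100 nt and 13.5% farther away, so the share fell across the window edge without a step. The median test-arm score fell alongside, from 2.38 where the positions coincided to 1.92 at 41 to 50 nt by the first version and from 3.95 to 3.18 by the second. The median comparator score fell too, from 2.18 to 1.72 and from 3.29 to 2.61. Between the same bins the median difference went from 0.37 to 0.20 and from 0.58 to 0.43. Its fall was not steady: at 31 to 40 nt it was 0.31 and 0.55. Over all peaks of the table the listed share fell likewise, from 47.4% where the positions coincided to 21.3% at 41 to 50 nt. The side of the motif made little difference: 27.9% of the peaks with a negative and 28.6% of those with a positive distance were listed.

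**Figure D3:**
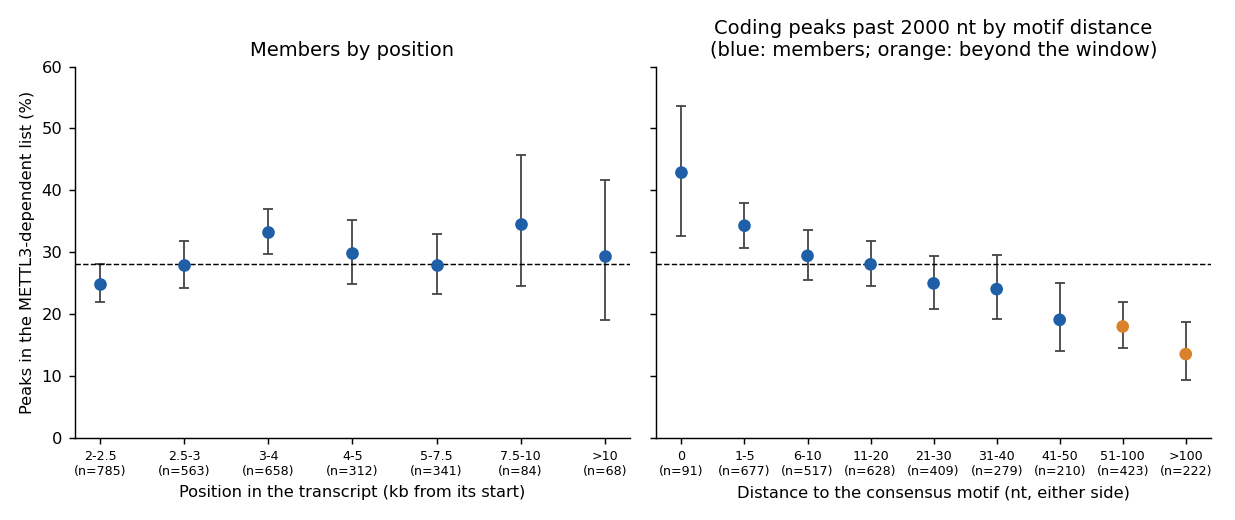
Share of peaks in the METTL3-dependent list (y axis, percent) by position in the transcript (left, kb) and by distance to the motif (right, nt); bars are exact 95% intervals for counting error and the dashed line is the share of all peaks, 28.1%. The share stays between 24.8% and 34.5% along the message and falls from 42.9% to 19.0% across the motif window.

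How often a peak was called in the replicates followed the motif distance as well. The table gives a number of peaks per arm from 0 to 3, taken as how many replicates called the peak. At least 2 test replicates had the call for 613 distal coding peaks (21.8%, against 29.4% of all peaks) and at least 2 comparator replicates for 445 (15.8%, against 24.1%). Coding peaks near the motif nearer the start had similar shares, 22.9% and 15.3% at 1000 to 2000 nt and 22.2% and 14.8% before 1000 nt. Where peak and motif of a distal coding peak coincided, the shares were 42.9% and 30.8%. They were 29.8% and 21.3% at 1 to 5 nt, 20.7% and 16.2% at 11 to 20 nt, and 10.5% and 8.57% at 41 to 50 nt. In each of the 7 distance bins of the window the test arm had the larger share. Over all peaks the shares fell less and were higher, apart from the comparator share where peak and motif coincided. They were 43.7% and 30.1% there, 37.3% and 23.9% at 1 to 5 nt, and 29.04% and 20.8% at 11 to 20 nt. At 41 to 50 nt they were 21.2% and 22.1%, so the comparator arm had the larger share. Scores of both arms fell over the same bins, as given above, and their part in this relation was not tested.

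**Figure D4:**
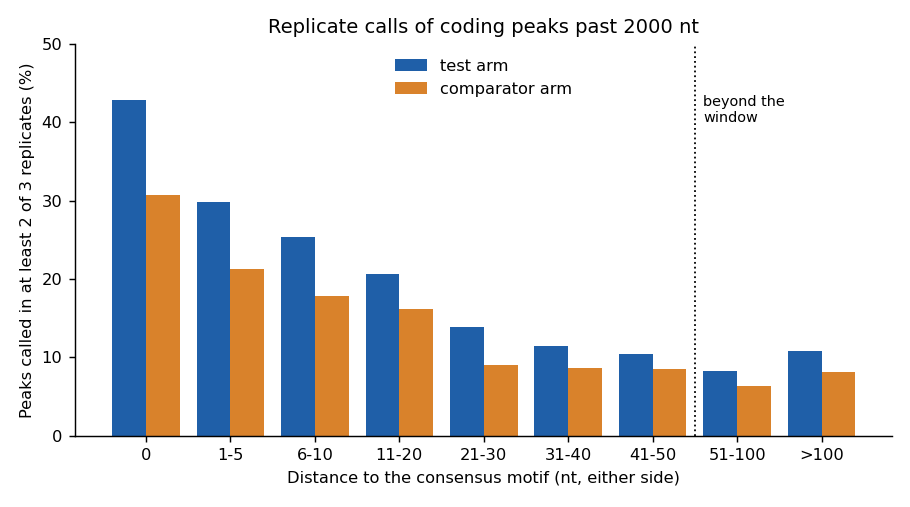
Share of coding peaks past 2000 nt called in at least 2 of 3 replicates (y axis, percent) by distance to the motif (x axis, nt), for the test arm (blue) and the comparator arm (orange); peaks right of the dotted line are outside the motif window. The bars fall from 42.9% and 30.8% where peak and motif coincide to 10.5% and 8.57% at 41 to 50 nt.

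Without any call were 549 distal coding peaks (19.5%, against 15.9% of all peaks). A single comparator call and no test call was the record of a further 657 (23.4%, against 20.7%), and a single test call and no comparator call that of 660 (23.5%, against 22.3%). Calls in all 3 replicates of both arms were found for 133 (4.73%, against 9.58% over all peaks). Calls in all 3 test and no comparator replicates were found for 54 peaks (1.92%, against 1.95% of all peaks), and the converse for 14 (0.498%, against 0.918%). The 54 had median differences of 0.92 and 1.21 on the 2 versions, and 39 of them were listed. The calls and the scores come from the same libraries, so the calls are not separate evidence for the list. More test than comparator calls were recorded for 1054 distal coding peaks (37.5%) and fewer for 843 (29.99%), beside 37.97% and 29.3% of all peaks. Among coding peaks far from the motif past 2000 nt these shares stood the other way, at 33.2% and 40.2%. Other measures of these 645 peaks kept the usual order. Calls by at least 2 test replicates were recorded for 9.15% of them, and by at least 2 comparator replicates for 6.98%. Their test score was the higher one for 58.3% on the first version and for 65.6% on the second.

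The listed share varied with the level of the score. In the lowest of 3 equal groups by first-version level, 20.6% of 937 distal coding peaks were listed and 2.77% were called in at least 2 test replicates. In the highest group these shares were 38.2% and 44.0%. By second-version level the listed share was 21.6% in the lowest, 34.3% in the middle and 30.4% in the highest group. The list is chosen on the same scores, so this describes where listed peaks sit in the range of scores.

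Neighbouring distal coding peaks carried similar differences when close. Across 262 pairs spaced up to 100 nt the correlation of their first-version differences was 0.89 (Pearson's r) and that of their test-arm scores 0.96. At 200 to 400 nt these values were 0.52 and 0.77 over 273 pairs, and at 400 to 800 nt 0.28 and 0.44 over 204. Beyond 800 nt they were 0.42 and 0.39 over 214 pairs. The second-version differences correlated less, with 0.75 up to 100 nt, 0.26 at 200 to 400 nt, 0.17 at 400 to 800 nt and 0.25 beyond. The pairs share libraries and messages and, at short spacing, may share fragments, so these correlations are given as a description. A distal coding peak whose upstream neighbour within 100 nt was listed was itself listed in 61.2% of cases, and in 13.8% where the neighbour was not. At 400 to 800 nt the corresponding shares were 32.8% and 30.7%, and beyond 800 nt 45.3% and 27.3%. Within the 602 messages with at least 2 of these peaks, the SD of the first-version difference was 0.52 around the mean of each message and 0.73 over all 2015 peaks. For the second version these were 0.65 and 0.77.

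Other peaks of the same message allowed a comparison inside 1 RNA. A stop-codon peak was present on 594 of the 1398 transcripts. The median difference of their distal coding peaks was below that of their stop-codon peaks in 357 (60.1%, 56.0% to 64.1%) by the first version and in 374 (63.0%, 58.9% to 66.9%) by the second. The medians were 0.36 for the distal coding and 0.61 for the stop-codon peaks on the first version, and 0.54 and 0.78 on the second. Of these transcripts, 143 had both a listed distal coding peak and a listed stop-codon peak, 134 only a listed stop-codon peak, 131 only a listed distal coding peak and 186 neither. Against 3' UTR peaks of the same message the distal coding peaks had the lower difference in 182 of 305 transcripts (59.7%).

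Set against peaks at the start of the same message, distal coding peaks more often had the higher difference. On 470 transcripts with both, the distal coding peaks had the higher difference in 366 (77.9%) by the first version and 360 (76.6%) by the second. Their medians were 0.35 and 0.51, and those of the start peaks -0.28 and -0.22. On the 277 transcripts with all 3 kinds of peak, the medians were -0.25 at the start, 0.39 in the distal coding sequence and 0.68 around the stop codon on the first version. That order held within a single transcript in 126 of the 277 (45.5%), and in 131 (47.3%) on the second version.

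Distal coding peaks nearest to a stop-codon peak had the largest listed share and median differences among 6 distance bins. Within 250 nt, 31 of 77 were listed (40.3%, 29.2% to 52.1%), with median differences of 0.59 and 0.86. At 250 to 500 nt 27.1% of 192 were listed, at 500 to 1000 nt 26.7% of 277, at 1000 to 2000 nt 29.1% of 368, at 2000 to 4000 nt 29.3% of 280 and farther away 34.0% (26.7% to 41.9%) of 159. The intervals of all these bins overlapped. The first-version median difference was 0.25 at 1000 to 2000 nt and 0.51 beyond 4000 nt, so it did not fall steadily with distance. Messages without a stop-codon peak held 1458 distal coding peaks, of which 28.0% were listed, and those with one held 1353, of which 29.6% were.

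The 3 messages with the most distal coding peaks show how the values lie along an RNA. The message with 19 of them, on chromosome 5 between 24790501 and 24879064, carried them from 2267 to 13490 nt in 5 intron-free stretches, the largest with 6 peaks over 1382 nt. Its test arm was higher in 15 of the 19 by the first version and in 16 by the second, with a median difference of 0.56 and 0.62. Test-arm scores ran from 1.39 to 3.71 and comparator scores from 0.62 to 3.56. Differences changed along this RNA: the 3 peaks between 2267 and 2513 nt had first-version differences of 0.59, 1.31 and 1.201, whereas the 5 between 10329 and 11456 nt had 0.07, -0.04, 0.22, -0.51 and -0.04. The peaks at 11456 and 13490 nt were called in all 3 replicates of both arms, and 3 of the 19 were listed.

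The message with 17 distal coding peaks, on chromosome 16 between 37060215 and 37062855, held all of them in 1 intron-free stretch of 2640 nt, with a median spacing of 121 nt. The test arm was higher in 13 of the 17 on the first version, with a median difference of 0.26, and in all 17 on the second, with 0.95. Its listed peaks were 4, of which that at 3301 nt scored 3.61 (test arm) and 2.53 (comparator arm) and was called in 3 test and 1 comparator replicates. No replicate call was recorded for 6 of the 17. The message with 13, on chromosome 13 between 103525756 and 103528730, also held them in 1 stretch, which spanned 3805 nt with its other peaks. There the test arm was higher in 8 of 13 by the first version and in 12 of 13 by the second, with median differences of 0.20 and 1.56. On both versions the test arm was thus higher in most peaks of each of the 3 messages. In each the median difference was larger on the second version, least so in the first message.

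**Figure D5:**
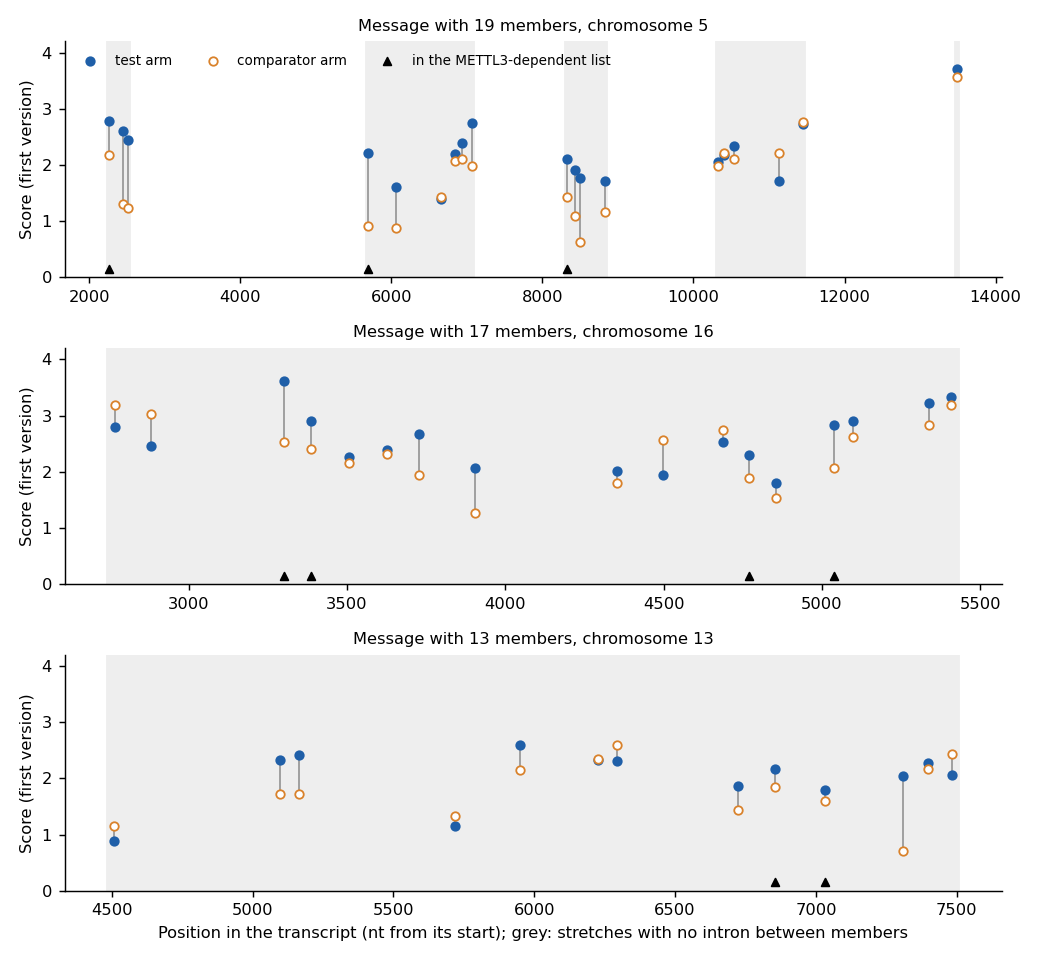
First-version scores (y axis, score units) of each distal coding peak along the 3 messages with the most of them (x axis, nt from the transcript start), filled for the test arm and open for the comparator arm; grey bands are intron-free stretches and triangles mark listed peaks. The peaks lie in 5 separate stretches in the first message and in 1 in each of the others.

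Single peaks with the largest differences were taken among those called in at least 2 replicates of an arm. In the authors' deposited table the largest belonged to uc007mks.2, on chromosome 11 at position 116156538 and 2738 nt into the transcript, with scores of 3.20 (test arm) and 0.53 (comparator arm) and an unadjusted p of 0.0440. Its second-version scores in the authors' deposited table were 1.31 and -0.64 (p = 0.0661), and it was called in 2 test and 0 comparator replicates. Its first-version comparator score, 0.528321, recurred exactly in distal coding peaks of other transcripts. A first-version comparator score of 0 recurred too, also in listed peaks. In several transcripts it came with a second-version comparator score of 1.71. Without read counts it is unknown whether such values mark an arm with few reads, and differences that rest on them are uncertain. The next in the authors' deposited table was uc009mrl.1, at position 90853659 of chromosome 8, with scores of 3.88 and 1.34 (unadjusted p = 0.0950; second version 1.84 and -0.79, p = 0.00233). It was called in all 3 test replicates and in 0 of the comparator arm. A further peak, on chromosome 1 at position 138423947, scored 4.94 and 2.43 in the authors' deposited table, with unadjusted p of 0.0222 and 0.0147 on the 2 versions.

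The most negative differences were smaller in size. In the authors' deposited table, uc007bhs.1, on chromosome 1 at position 65312422, had a test-arm score of 0.63 against 2.36 (unadjusted p = 0.136; second-version scores 0.05 and 1.34, p = 0.234) and was called in 0 test and 2 comparator replicates. The authors' deposited table gave uc008zgm.1, on chromosome 5 at position 119192642, scores of 1.93 and 3.59 (unadjusted p = 0.0100; second version 3.44 and 4.72, p = 0.132), with calls in 2 test and 3 comparator replicates. For 2 of the 5 most negative the second version had the opposite sign, as in the peak on chromosome 5 at position 134978958, whose difference in the authors' deposited table was -1.30 on the first and 0.45 on the second. These peaks were chosen for their extreme values, and none had an adjusted p under 0.05.

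The strongest distal coding peaks called in every replicate had first-version differences above the median of the set, 0.31. On the second version only that on chromosome 7, with 0.84, lay above the median of the set, 0.53. In the authors' deposited table the highest mean score was that of the peak on chromosome 10 at position 118648407, 2580 nt into its transcript, with 6.16 (test arm) and 5.67 (comparator arm). The next, on chromosome 14 at position 33946720, had 5.83 and 5.37 in the authors' deposited table. The third, on chromosome 7 at position 125289139, lay 9650 nt into its message exactly at the motif and had 5.51 and 4.94 in the authors' deposited table. All 5 peaks of this kind scored higher in the test arm on both versions, by 0.42 to 0.66 on the first and 0.20 to 0.84 on the second, and 4 of them were listed.

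Beyond 10000 nt, 27.9% of the 68 distal coding peaks were called in at least 2 test and 22.1% in at least 2 comparator replicates, and 11.8% had no call. The 2 farthest had few calls. In the authors' deposited table the last, on chromosome 12 at position 115150485, lay 30382 nt into its transcript and had a test-arm score of 2.35 against 2.48, with a call in 1 comparator replicate. A second peak of that transcript, at 28942 nt, had 1.84 and 1.72 in the authors' deposited table, no call in either arm and a place in the list through its second-version p of 0.0355.

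Listed shares and first-version differences lay close together on both sides of the thresholds, while the shares called in at least 2 test replicates did not. Among the 170 distal coding peaks within 100 nt past the position threshold, 22.9% were listed with a median first-version difference of 0.23, and among the 189 coding peaks near the motif within 100 nt before it, 23.8% with 0.25. The second-version medians there were 0.45 past and 0.59 before the threshold. Calls in at least 2 test replicates were found for 11.8% past and 25.9% before it, and no call in either arm for 24.7% and 14.8%. At 46 to 50 nt from the motif 22.8% were listed with a median difference of 0.20, and at 51 to 55 nt 18.4% with 0.22. In the authors' deposited table the 2 distal coding peaks nearest the position threshold, both at 2002 nt, had first-version differences of 0.23 and 0.78, and 2 coding peaks at 2000 nt had 0.46 and -0.12.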

How the data were processed

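A peak table and a shorter METTL3-dependent list, both by the authors, were read. The submitters' processing notes name SAMtools 1.3.1, STAR, cutadapt, DESeq2 and HTSeq, with builds mm9 and mm10. Which step each served, how peaks were called and how p-values were computed are steps not given in the sources used. Per the file headers, the deposited peak scores are 1 value per arm in 2 versions, with their difference; the scores cannot be traced to libraries. The p-values deposited by the authors were read as unadjusted, and 11 of the 2811 members had none on the first version. Depth is unknown.

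The list was joined to the table by position and transcript, and all 9005 listed peaks were found. The list's rule, an unadjusted p under 0.1 on either version with the test arm higher on either, held for all 32009 peaks. Benjamini-Hochberg adjustment ran over the whole table. Peaks of a transcript were put in 1 stretch when genomic and transcript distances to the neighbour were equal. The planned gene lists (m6A machinery, activated B cell, chromatin regulators) could not be applied, as 0 identifiers matched.

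Shares have exact Clopper-Pearson 95% intervals, and medians an interval from order statistics. Peaks named singly were the 5 largest and 5 most negative first-version differences among members called in at least 2 replicates of an arm, the 5 highest mean scores among those called in all 3 replicates of both arms, the 3 farthest along, the 3 messages with most members and those nearest the thresholds. Some of each are printed, with at most 4 transcript identifiers. The members, sets and rules were chosen with earlier results of these data known. Calculations used Python 3.11.15, numpy 2.4.6, pandas 2.3.3 and scipy 1.17.1, were tested on simulated data, and figures used matplotlib 3.10.9.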

Additional observations from a re-analysis of the deposited data

How the results depend on the processing

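Of 49 alternative values, 41 counted as the same as the reported value and 8 fell outside its 95% interval. A share or median counted as the same when it lay within that interval. The count at an adjusted p, which has no interval, did so because it stayed at 0. Of the medians, 0 changed sign, a check that does not apply to shares. The alternatives were other position and motif thresholds, peaks with a replicate call, the strongest peak per transcript, merged peaks, stricter p and call rules, and 4 added after seeing the data (the second position column, no transcripts with 5 or more members, p and direction from the same version, and the second score version). The listed share, 28.7%, was 31.2% past 3000 nt and 17.5% with an unadjusted p under 0.05. The second-version median difference, 0.53, was 0.50 with the strongest peak of each transcript. The share called in at least 2 test replicates, 21.8%, was 24.9% with the motif within 25 nt, 20.04% within 100 nt, 30.1% with the strongest peak, 23.6% with merged peaks and 11.1% when all 3 replicates were required. The first-version median difference lay between 0.28 and 0.32, and the share of transcripts whose distal coding peaks had a lower difference than their stop-codon peaks between 57.2% and 63.0%. At an adjusted p under 0.1 the count of distal coding peaks was also 0. No paired analysis was possible because the scores are pooled per arm and carry no replicate number, and for the same reason no replicate could be left out. Read depth was not given, so what it limits cannot be set.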
